A study of Mus musculus with 64 samples.

Results

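The 9 genes described here encode complement proteins and complement receptors: C1qa, C1qb, C1qc, C3, C4b, Cfb, C3ar1, C5ar1 and Itgam. They were chosen by gene symbol from the 45708 genes of the count table, and no measured value entered that choice. The table holds 64 RNA-seq libraries of microglia, which are the brain's own macrophages, taken from mice by cell sorting on CD11b and CD45. CD11b is the product of Itgam, so the sorting gate used the protein of 1 of the 9 genes. Genotypes are labelled RISP KO, RISP Het or RISP WT, after the gene product of Uqcrfs1, an iron-sulphur subunit (Rieske) of complex III in the mitochondrial respiratory chain. The study's title sets mitochondrial respiration in microglia against their response to demyelination and their proliferation.

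The naive adult libraries were compared inside 3 sets that share library properties: replicates numbered 1 to 5 of KO, 1 to 4 of Het and 1 to 5 of WT; 6 to 11 of KO and 5 to 11 of Het; and 12 and 13 of KO and Het. Adult mice given cuprizone, a copper-binding toxin under which oligodendrocytes die and myelin is lost, are represented by 6 KO and 4 Het libraries. PLX3397 blocks CSF1R, the receptor microglia need for survival. Its depletion group held 2 KO, 2 Het and 4 WT libraries, and its repopulation group 4 libraries of each genotype, all adult. Old naive mice gave 3 Het libraries. The labels name no Cre driver, dose, day or sex, and do not tell if each replicate is its own animal, so p-values measure the spread between libraries, which may be technical. Every library, WT included, held reads of a CreERT2 transgene, at 131 to 989 CPM (counts scaled to a total of 1e+06 per library). Per the labels' protocols, untreated KO and WT libraries were sequenced on a NextSeq 500 and all others on a NextSeq2000, with other read lengths. Which naive libraries that covers is not given sample by sample, so naive KO or WT against naive Het or against a treatment may also compare instruments, and the 2 cannot be told apart. In bulk RNA, fewer cells of a type and less RNA per cell cannot be told apart.

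Complement is a cascade of proteins that tags targets for removal. C1q, a recognition protein built from the chains of C1qa, C1qb and C1qc, starts the classical pathway, which cleaves C4 and then C3. Factor B, from Cfb, joins with cleaved C3 to form the convertase of the alternative pathway, which amplifies C3 cleavage. The released peptides C3a and C5a signal through the receptors encoded by C3ar1 and C5ar1, and Itgam encodes the alpha chain of complement receptor 3, which binds the iC3b fragment left on targets. Microglia are the main source of C1q in the brain, and C1q, C3 and complement receptor 3 are known for their part in the removal of synapses.

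The C1q genes lie next to each other on the minus strand of mouse chromosome 4 (GRCm38): C1qb at chr4:136880129-136886187, C1qc at chr4:136889804-136893065 and C1qa at chr4:136895917-136898803. Since the 3 chains moved together, the bases before the start sites of C1qb and C1qc are shown, with those of Itgam, which did not pass beside them in repopulated KO, and of C3, the component on which the pathways converge. RefSeq (GRCm38.p6) gave 6 of the 9 genes: C1qb, C1qc, C3, C3ar1, C5ar1 and Itgam. In the 250 bases before each start, both strands were searched for the PU.1-type motif GAGGAAG, the interferon-stimulated response element and the C/EBP motif TTGCNNAA. The response element was searched as a pair of GAAA runs with any bases in a gap of 2. Capitals mark the matches, and for C1qc only the outer 99 bases, which lie before the GENCODE start, are printed.
C1qb, chr4:136886201-136886450, minus strand: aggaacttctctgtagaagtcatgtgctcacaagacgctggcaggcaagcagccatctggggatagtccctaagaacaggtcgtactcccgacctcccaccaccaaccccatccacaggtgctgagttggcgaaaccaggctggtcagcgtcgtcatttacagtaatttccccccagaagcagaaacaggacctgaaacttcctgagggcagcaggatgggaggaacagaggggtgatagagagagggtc
C1qc, chr4:136893066-136893164, minus strand: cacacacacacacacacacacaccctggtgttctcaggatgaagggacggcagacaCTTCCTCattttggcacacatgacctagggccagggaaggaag
Itgam, chr7:128062390-128062639, plus strand: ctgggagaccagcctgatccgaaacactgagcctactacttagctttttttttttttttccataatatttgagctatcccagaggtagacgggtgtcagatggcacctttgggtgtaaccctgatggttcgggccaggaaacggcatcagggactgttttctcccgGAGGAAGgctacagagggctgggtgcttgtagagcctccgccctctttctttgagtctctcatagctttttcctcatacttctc
C3, chr17:57228137-57228386, minus strand: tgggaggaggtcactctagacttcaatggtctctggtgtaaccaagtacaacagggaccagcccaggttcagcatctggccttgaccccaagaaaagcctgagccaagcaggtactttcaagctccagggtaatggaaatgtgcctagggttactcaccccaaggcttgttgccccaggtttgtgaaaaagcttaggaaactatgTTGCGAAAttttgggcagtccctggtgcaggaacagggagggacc
C1qc held the PU.1-type letters on the opposite strand, starting 194 bases before its RefSeq start, and Itgam held them 84 bases before its start. C3 held the C/EBP letters 45 bases before its start. C1qb, C3ar1 and C5ar1 held none of the 3 motifs, no window held more than 1 match, and those of the interferon-stimulated response element were in none of the 6. Among 32851 promoters of the same length, 10.6% held the PU.1-type letters, 2.98% those of the interferon-stimulated response element and 9.56% the C/EBP letters.

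In units of 1e+06 counts, library totals ran from 2.7 to 24.03 with a median of 11.9. The cuprizone libraries were the shallowest, at 2.7 to 5.1. Noncoding transcripts Gm26917 and Yam1 took 0.069 to 0.276% of counts in naive KO 1 to 5, Het 1 to 4 and WT 1 to 5 and in the PLX3397 libraries, and 2.22 to 13.6% in the others. Levels are therefore compared only inside a set fitted together: the 34 libraries of the low-noncoding set, the 23 of cuprizone with naive 6 to 11 KO and 5 to 11 Het, and the 7 of naive 12 and 13 with old Het. The cuprizone libraries differ in depth from the naive libraries beside them, so cuprizone and depth cannot be told apart. Uqcrfs1 was lower in every KO group than in its controls with no overlap of the libraries, and fell in each KO comparison except naive 12 and 13 (log2 fold change -2.17 ± 0.35 SE, adjusted p = 0.295). The 8 microglia markers fixed for the labels, such as P2ry12 and Tmem119, summed to 33590 to 51550 CPM in the low-noncoding set. Neutrophil markers summed to at most 96.1 CPM, and monocyte markers to at most 89.4 CPM. The highest sums of the other lists were 23.1 CPM for neurons, 322.9 for astrocytes, 597.3 for endothelium, 1332 for border macrophages and 1866 for oligodendrocytes.

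Levels per kilobase of exon differed widely between the 9 genes. In naive WT microglia the means were 5255 CPM per kb for C1qa, 2825 for C1qb and 2157 for C1qc. Itgam followed at 382.5 CPM per kb, C3ar1 at 89.9, C5ar1 at 52.5, C4b at 22.5, C3 at 3.28 and Cfb at 0.532. Thus the recognition chains were the most abundant of these transcripts, and Cfb was near the limit of counting. All of these genes but Cfb had counts in all 64 libraries, whereas Cfb had 0 counts in 20 of them. All 9 passed the filter on low counts in the low-noncoding set, and 8, all but Cfb, in the other 2 sets.

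**Figure D1:**
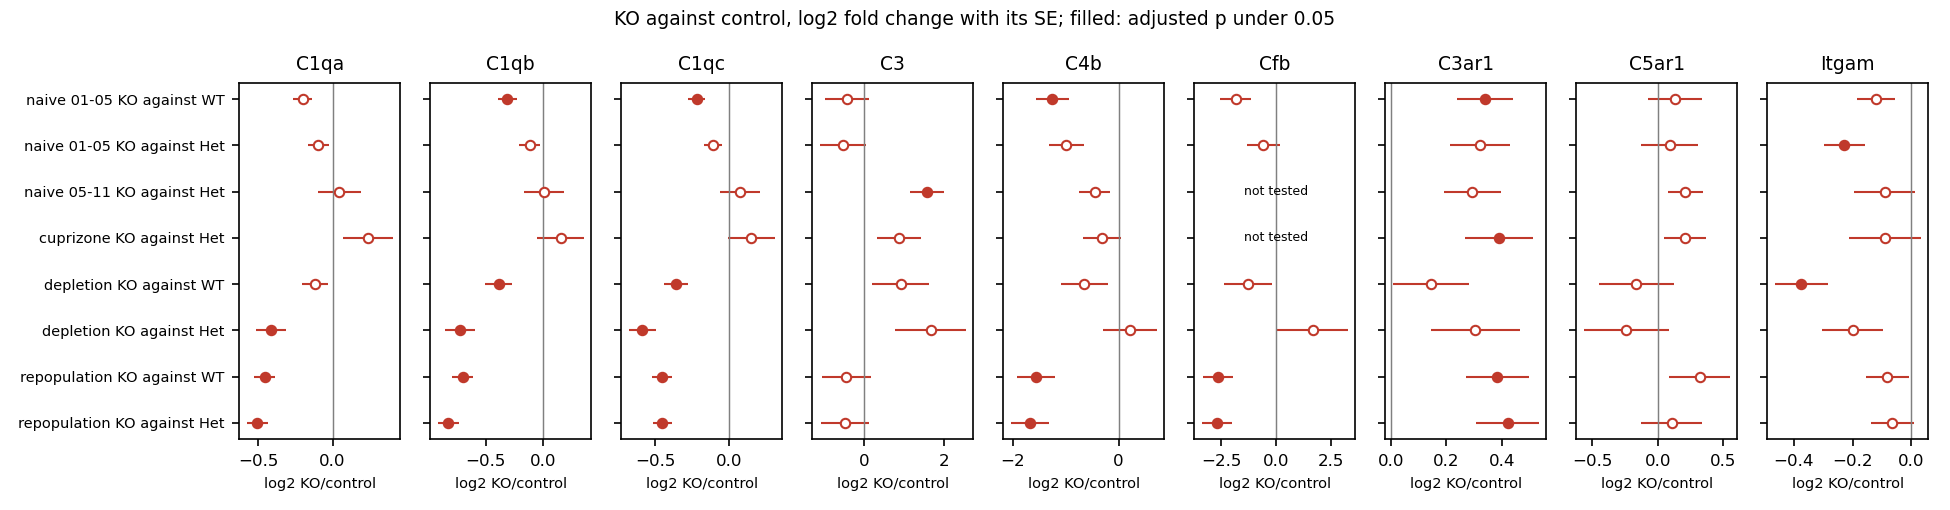
Log2 fold change of KO against WT or Het (x axis) for each gene (panels) in the KO comparisons (rows; naive 12 and 13 are not drawn), with its standard error; filled points passed the test and open points did not. The C1q chains lie left of zero in the depletion and repopulation rows, while C3ar1 lies right of zero in every row, by 0.14 to 0.42.

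After repopulation, 6 of the 9 genes differed between KO and Het, and the 6 also differed between KO and WT. The 3 C1q chains, C4b and Cfb were lower in KO and C3ar1 was higher. Among all 15664 genes tested, 12.6% passed in KO against Het and 12.9% in KO against WT. The median log2 fold change of the 9 genes was -0.48 against Het and -0.45 against WT, beside -0.01 over all genes in each comparison. C3, C5ar1 and Itgam did not pass in either.

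C1qb showed the largest difference of the 3 chains at repopulation. Its level was 2419, 2584, 2678 and 2520 CPM in the KO libraries. It was 3998, 4720, 4370 and 5032 CPM in the Het libraries and 3911, 4234, 4301 and 4153 CPM in the WT libraries. Every KO library lay below every control library. C1qb fell in KO by 0.83 ± 0.09 on the log2 scale against Het (adjusted p = 3.8e-07) and by 0.70 ± 0.09 against WT (adjusted p = 4.65e-06).

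C1qa followed the same order. Its KO libraries held 4917, 5439, 5303 and 5049 CPM. Het held 6905, 7760, 6904 and 7865 CPM, and WT 6596, 6932, 7516 and 7399 CPM. Again no KO library reached a control library, and C1qa fell by 0.51 ± 0.07 against Het (adjusted p = 1.34e-05) and by 0.46 ± 0.07 against WT (adjusted p = 4.78e-05). The WT comparison missed the threshold with all 64 libraries in 1 fit (-0.45, adjusted p = 0.0537).

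C1qc, the third chain, held 3881, 4096, 4133 and 4035 CPM in KO at repopulation. Het held 5269, 5695, 5236 and 5848 CPM, and WT 5207, 5338, 5589 and 5958 CPM. The groups did not overlap, and C1qc fell by 0.45 ± 0.07 against each control genotype (adjusted p = 2.4e-05 against Het and 1.96e-05 against WT). Of the 8 microglia markers, 2 also fell in these comparisons, among them Tmem119 (by 0.54 against Het and by 0.70 against WT), while the other 6 did not pass. The endothelial marker Pecam1 (1 of 5) and the monocyte marker Plac8 (1 of 6) fell against both controls as well. The part of these markers in the C1q result was not tested.

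**Figure D2:**
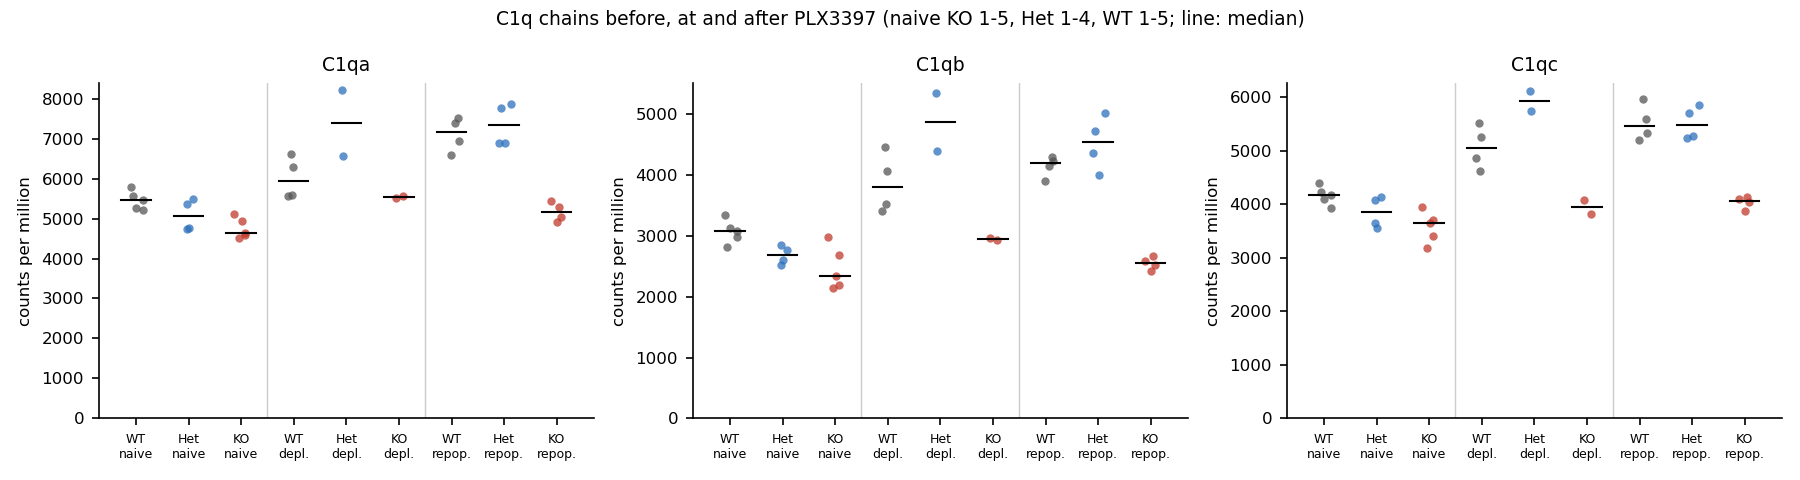
CPM of C1qa, C1qb and C1qc (y axes) in each library of 9 groups: naive, depletion and repopulation in WT (grey), Het (blue) and KO (red), with the median as a line. The repopulated WT and Het libraries of C1qb lie between 3911 and 5032 CPM and the KO libraries between 2419 and 2678 CPM.

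Seen against naive microglia of the same genotype, the chains were higher after repopulation in Het and WT. In naive Het, C1qb held 2846, 2768, 2528 and 2599 CPM. In naive WT it held 3132, 2976, 3353, 3088 and 2819 CPM, and in naive KO 2978, 2692, 2345, 2147 and 2196 CPM. Repopulated Het and WT libraries all exceeded their naive counterparts, whereas the repopulated and naive KO libraries overlapped. C1qb rose by 0.76 ± 0.09 in Het (adjusted p = 6.03e-07) and by 0.43 ± 0.09 in WT (adjusted p = 0.00109), and its value in KO was 0.05 ± 0.09 (interval of 2 SE from -0.13 to 0.22, adjusted p = 0.829).

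C1qa rose by 0.53 ± 0.07 in Het (adjusted p = 2.72e-06) and by 0.38 ± 0.07 in WT (adjusted p = 2.44e-04). In KO its value was 0.12 ± 0.07 (interval -0.02 to 0.26, adjusted p = 0.315). C1qc rose by 0.52 ± 0.07 in Het (adjusted p = 1.23e-06) and by 0.41 ± 0.06 in WT (adjusted p = 2.88e-05), with 0.17 ± 0.06 in KO (interval 0.05 to 0.30, adjusted p = 0.0879). In WT, C1qa and C1qb missed the threshold with all 64 libraries in 1 fit (adjusted p = 0.113 and 0.135). Counting all members, 4 of 9 passed in Het, 5 in WT and 2 in KO, against 13.3%, 7.71% and 8.66% of all genes. Cell markers passed here too, with 7 of 7 border macrophage markers in each genotype. Microglia markers passed in 5, 1 and 1 of 8, endothelial in 4, 1 and 2 of 5 and monocyte in 2, 1 and 1 of 6 (Het, WT and KO). Of the astrocyte markers 1 of 6 passed in WT. The part of these markers in the C1q values was not tested.

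The dependence of the repopulation response on genotype was tested as a difference of differences. Its naive KO against Het part nearly follows a subdivision of the naive libraries known from earlier work. A term for that subdivision was not run in this test. Relative to the naive KO against Het difference, the repopulated one was lower by a further 0.71 ± 0.13 for C1qb (log2 value -0.71, adjusted p = 0.00502) and 0.41 ± 0.10 for C1qa (-0.41, adjusted p = 0.0431), while C1qc did not pass (-0.34 ± 0.09, adjusted p = 0.0742; 0.00748 in DESeq2 and 0.0324 without naive KO 4). These were 2 of 9 members in edgeR, where 0.664% of all genes passed (104 of 15664). With C1qc they were 3 in DESeq2, where 345 of 15664 genes passed. With WT as the control the same test passed for 0 of 9 members in edgeR and in DESeq2, against 0.23% of all genes, and 3 members (C1qa, C1qb and C1qc) had an unadjusted p under 0.05 in edgeR. The C1qb value against WT was -0.39 ± 0.13 (adjusted p = 0.25). C1qb kept its call against Het without any single library and lost it with all 64 libraries in 1 fit (-0.72, adjusted p = 0.29).

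For C1qa that difference was less stable. It missed the threshold with no filter on low counts (adjusted p = 0.139) and with all 64 libraries in 1 fit (adjusted p = 0.626). It also did so without naive Het 3 or 4 (adjusted p = 0.136 and 0.125), without repopulated Het 2 or 4 (0.101 and 0.106) and without naive KO 1, 2 or 3 (0.0672, 0.061 and 0.0928). Leaving out repopulated KO 1, 2, 3 or 4 gave adjusted p = 0.096, 0.0532, 0.0743 and 0.0839.

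At depletion the C1q chains were also lower in KO, on fewer libraries. C1qb held 2942 and 2967 CPM in KO, 5357 and 4398 CPM in Het, and 4460, 4067, 3415 and 3532 CPM in WT. C1qc held 3817 and 4085 CPM in KO, 6118 and 5744 CPM in Het, and 5521, 5249, 4870 and 4622 CPM in WT. Neither KO library overlapped a control for these 2 chains. Against Het, C1qb fell by 0.72 ± 0.13 (adjusted p = 0.00188), C1qc by 0.59 ± 0.09 (adjusted p = 7.56e-04) and C1qa by 0.41 ± 0.10 (adjusted p = 0.02). Those were the 3 of 9 members that passed, against 3.39% of all genes.

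Against WT at depletion, C1qb fell by 0.39 ± 0.12 (adjusted p = 0.0416), C1qc by 0.36 ± 0.08 (adjusted p = 0.00668) and Itgam by 0.37 ± 0.09 (adjusted p = 0.0103), again 3 of 9, against 5.78% of all genes. C1qa, at 5570 and 5527 CPM in KO and 5563 to 6620 CPM in WT, did not pass (-0.12 ± 0.09, adjusted p = 0.541). No member passed in edgeR against either control with only the libraries compared, nor with all 64 libraries. Over all genes the first of these fits gave 0 calls of 13095 against Het and 333 of 13553 against WT, and the second 94 and 296 of 18413. Microglia markers fell in part here too: 3 of 8 against Het and 4 of 8 against WT, among them Tmem119 by 0.70 against Het and by 0.53 against WT. The monocyte marker Chil3 and the neutrophil marker Camp rose in KO against WT (by 6.39 and 6.83), 1 of 6 tested on each list. Of the endothelial markers 1 of 5 passed against WT and 0 of 5 against Het. Monocyte markers summed to 9.22 CPM in KO 1 and 59.2 CPM in KO 2, and neutrophil markers to 0 and 57.9 CPM. The highest WT sums were 8.58 and 3.22 CPM, so the 2 KO libraries were unlike in these markers. The part of these markers in the C1q values was not tested.

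Several depletion calls turned on single libraries. C1qa against Het was lost with no filter on low counts (adjusted p = 0.0679) and without Het 1 (-0.24, adjusted p = 0.28), KO 1 (adjusted p = 0.152) or KO 2 (0.123). C1qb against WT was lost without KO 1, KO 2, WT 1 or WT 2 (adjusted p = 0.245, 0.214, 0.124 and 0.0877), C1qc against WT without KO 1 (0.162) and Itgam without KO 2 (0.257). C1qb and C1qc against Het were kept without any single library. No member passed in the difference of the KO against WT value between depletion and naive (0 of 9 in edgeR and in DESeq2, 1 with an unadjusted p under 0.05, Itgam; 0.0383% of all genes passed).

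Against naive microglia of the same genotype, the chains rose at depletion in Het, and C1qb and C1qc rose in WT. In Het, C1qa rose by 0.54 ± 0.09, C1qb by 0.86 ± 0.11 and C1qc by 0.62 ± 0.08 (adjusted p = 9.74e-05, 5.85e-06 and 5.74e-06). In WT, C1qb rose by 0.33 ± 0.09 (adjusted p = 0.0176) and C1qc by 0.28 ± 0.06 (adjusted p = 0.00454), with C1qa at 0.14 ± 0.07 (adjusted p = 0.238). In KO the values were 0.22 ± 0.08, 0.26 ± 0.11 and 0.14 ± 0.08, and none passed (adjusted p = 0.138, 0.194 and 0.367). Over all 9 members 5 passed in Het, 4 in WT and 1 in KO, beside 14.7%, 7.51% and 5.62% of all genes. Whether the change differs between KO and WT is the difference tested above, which no member passed. C1qb in WT was lost without WT depletion 1 (adjusted p = 0.0926) or 2 (0.0641). It was also lost with only the libraries compared (0.0523). C1qb and C1qc in WT were lost with all 64 libraries in 1 fit (0.353 and 0.288). Cell markers also passed at depletion against naive. In Het, WT and KO these were 6, 2 and 3 of 8 microglia, 7, 7 and 5 of 7 border macrophage and 1, 2 and 2 of 6 monocyte markers. In Het 1 of 5 endothelial and 1 of 6 astrocyte markers passed as well. The part of these markers in the C1q changes was not tested.

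From depletion to repopulation 1 chain passed in 1 genotype. C1qa rose in WT by 0.24 ± 0.07 (adjusted p = 0.0287), a call lost without WT depletion 3 or 4 (adjusted p = 0.0985 and 0.0964) and without WT repopulation 3 or 4 (0.0938 and 0.0843). It was lost too with no filter (0.0892), with only the libraries compared (0.0962) and with all 64 libraries (0.385). Members passing in this step were 2 of 9 in KO (C3ar1 and Itgam), 3 in Het (those and Cfb) and 4 in WT (C1qa, Cfb, C3ar1 and C5ar1), against 5.37%, 6.79% and 9.96% of all genes. In WT 2 of 8 microglia, 4 of 7 border macrophage and 3 of 6 neutrophil markers passed in this step. So did 1 marker each of the endothelial, monocyte and astrocyte lists, and their part in the C1qa value was not tested.

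In the low-noncoding naive libraries, before any treatment, C1qb fell in KO against WT by 0.31 ± 0.08 (adjusted p = 0.0206) and C1qc by 0.22 ± 0.06 (adjusted p = 0.0256), with overlap of the libraries. For C1qa every KO library, at 4503 to 5117 CPM, lay below every WT library, at 5213 to 5787 CPM, and the value missed the threshold (-0.20 ± 0.06, adjusted p = 0.0709; 0.0149 in DESeq2, 0.0419 with DESeq2's size factors and 0.03 without KO 1). Including C4b and C3ar1, 4 of 9 members passed in KO against WT, where 5.16% of all genes did. With only the 10 libraries compared, C1qb and C1qc each had an adjusted p of 0.122, and with all 64 libraries 0.439 and 0.529. C1qc was lost with no filter (0.0921). C1qb was lost without KO 3, 4 or 5 (0.0531, 0.0878 and 0.0795) or WT 3 (0.0712), and C1qc without KO 4 or 5 (0.108 and 0.0787) or WT 3 or 4 (0.0793 and 0.0506). In this comparison 1 of 8 microglia, 1 of 5 endothelial, 1 of 6 monocyte and 2 of 4 neuron markers also fell, and their part was not tested.

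Against Het the naive C1q values of KO were -0.10 ± 0.07 for C1qa, -0.12 ± 0.09 for C1qb and -0.11 ± 0.06 for C1qc, and none passed. Only Itgam of the 9 members passed in that comparison, against 8.47% of all genes. In naive KO 6 to 11 against Het 5 to 11 the chains gave 0.04 ± 0.15, 0.01 ± 0.18 and 0.08 ± 0.14, with intervals that reach 0.33, 0.36 and 0.35. C3 was the 1 member of 8 that passed there, against 8.06% of all genes. The Het library numbered 9 was the highest of its 7 for each chain, at 2890 CPM of C1qa, 2163 of C1qb and 2663 of C1qc, with medians of 1534, 1045 and 1537 CPM. The KO against Het values of the low-noncoding and the 6 to 11 sets differed for 0 of 9 members in edgeR and in DESeq2 (1 with an unadjusted p under 0.05, C3), beside 0.543% of all genes.

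Cuprizone did not move the C1q chains past the threshold. C1qb ran from 998.8 to 1422 CPM in Het and from 1107 to 1579 CPM in KO, inside the naive ranges. C1qa ran from 1304 to 1547 CPM in Het and from 1345 to 1957 CPM in KO, reaching below the lowest naive values of 1415 and 1597 CPM. C1qc, at 1372 to 1725 and 1416 to 2005 CPM, also reached below its lowest naive values of 1408 and 1507 CPM. Cuprizone against naive gave -0.42 ± 0.17 for C1qa in Het (adjusted p = 0.161; -0.50 and adjusted p = 0.00828 with all 64 libraries in 1 fit), and KO against Het under cuprizone gave 0.24 ± 0.17, 0.15 ± 0.21 and 0.16 ± 0.16 for C1qa, C1qb and C1qc (adjusted p = 0.423, 0.713 and 0.609). Of the 8 members tested, 1 (C4b) passed in cuprizone against naive in Het, 0 in KO in edgeR (2 with an unadjusted p under 0.05, C3 and C4b, and 1 in DESeq2), and 1 (C3ar1) in KO against Het under cuprizone. Among all genes 4.51%, 1.09% and 9.74% passed. The KO against Het value did not differ between cuprizone and naive for any of 8 members in edgeR or DESeq2 (0 with an unadjusted p under 0.05), where 0.00745% of all genes passed.

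Naive KO and Het replicates 12 and 13, 2 against 2, gave no call for any of the 8 members tested in edgeR or DESeq2, and 0 had an unadjusted p under 0.05. In this edgeR fit 0% of all genes passed, while 352 passed in DESeq2, 174 with only the libraries compared and 475 with no filter on low counts. The chains were -0.24 ± 0.26, -0.32 ± 0.23 and -0.33 ± 0.23 for C1qa, C1qb and C1qc, with both KO libraries below both Het libraries. Old against adult Het likewise left the chains within -0.16 and 0.09 on the log2 scale, with intervals of 2 SE from -0.57 at the lowest to 0.57 at the highest.

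Cfb, the factor B gene (ENSMUSG00000090231, chr17:34856374-34862518, minus strand), had the largest log2 changes of the 9 from naive to repopulated microglia. It was scarce in naive microglia: 1.84, 2.27, 1.61, 0.957 and 0.834 CPM in WT, 0.873, 0.411, 0.700 and 0.511 CPM in Het, and 1.02, 0.761, 0, 0.263 and 0 CPM in KO. After repopulation it held 15.2, 29.0, 5.06 and 14 CPM in WT and 11.9, 17.8, 23.1 and 13.3 CPM in Het. In repopulated KO it held 2.01, 2.45, 2.79 and 2.90 CPM. Every repopulated library of each genotype lay above its naive counterparts, and every repopulated KO library lay below every repopulated control.

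Cfb rose against naive by 4.70 ± 0.77 in Het (adjusted p = 5.78e-05), 3.39 ± 0.66 in WT (adjusted p = 6.32e-04) and 2.595 ± 0.71 in KO (adjusted p = 0.0185). The KO call was lost with only the libraries compared (adjusted p = 0.102) and with all 64 libraries in 1 fit (0.114). Between repopulated genotypes Cfb fell in KO, with log2 fold changes of -2.699 ± 0.69 against Het (adjusted p = 0.00838) and -2.64 ± 0.69 against WT (adjusted p = 0.00954). Both missed the threshold with all 64 libraries in 1 fit (adjusted p = 0.0853 and 0.0968), and the WT comparison also without WT repopulation 2, its highest library (-2.17, adjusted p = 0.0531). The genotype difference was not shown to differ from the naive one (-2.11 ± 1.03 against Het, adjusted p = 0.407, and -0.79 ± 0.99 against WT, adjusted p = 0.878). Already in naive KO against WT, Cfb had an unadjusted p under 0.05 in edgeR without passing. That naive value was negative and passed in DESeq2 (-1.88, adjusted p = 0.0319) and in edgeR without naive KO 1 (-2.46, adjusted p = 0.0386).

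At depletion Cfb had few reads. The 2 Het libraries held 2 and 0 counts, the 2 KO libraries 7 and 0, and the 4 WT libraries 8, 0, 9 and 19. A library with 0 counts allows up to 3 counts, or 0.230 to 0.326 CPM over the depletion libraries, by counting error alone. The summed level was 175 times higher in repopulated than in depleted Het (95% exact counting interval 48.3 to 1448), 19.97 times in WT (14.3 to 28.7) and 7.90 times in KO (3.73 to 20.03), where intervals cover counting error only. The rise passed in edgeR in Het (adjusted p = 0.00107) and WT (4.33 ± 0.77, adjusted p = 2.19e-04) and not in KO (2.98 ± 1.07, adjusted p = 0.104; 0.0193 in DESeq2). The fitted fold in Het rests on 2 counts and is not given. Gm20547 and Mir6972 overlap Cfb on the same strand in GENCODE.

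Outside the low-noncoding set Cfb was at or under 1.76 CPM in every library and did not pass the filter on low counts. Its highest value there came from the KO cuprizone library numbered 3, with 6 counts.

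**Figure D3:**
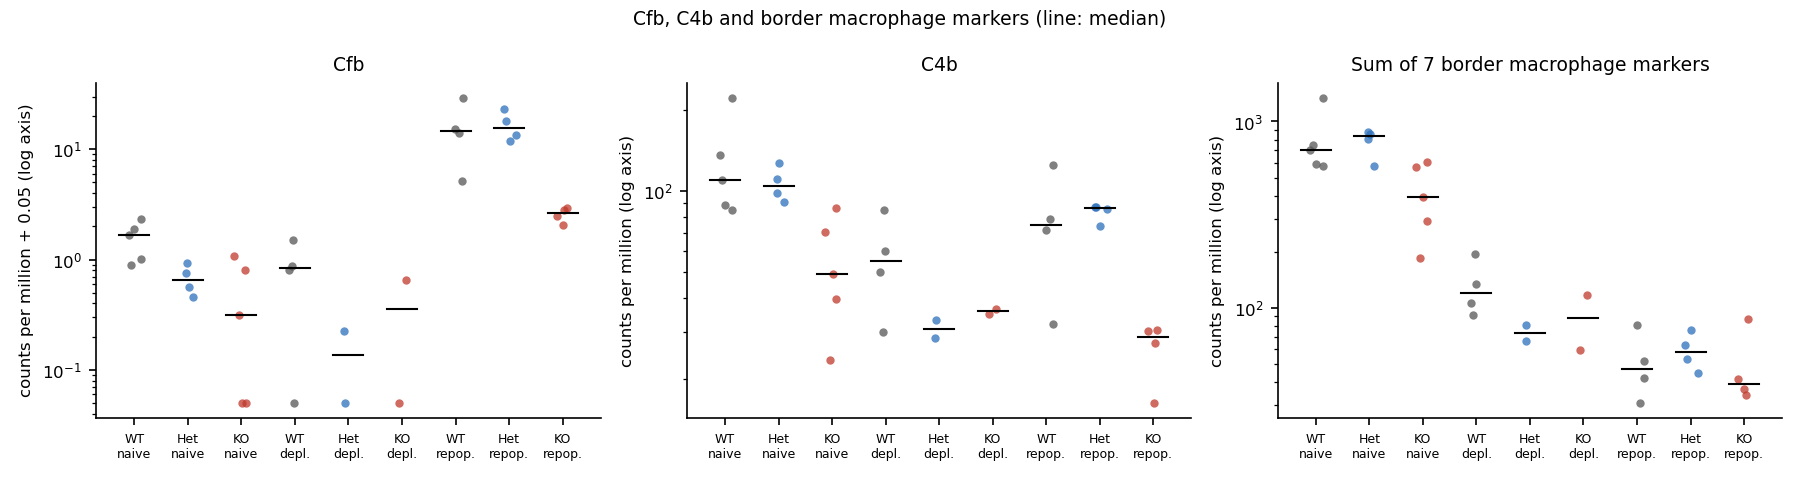
CPM (log axes) of Cfb (0.05 added so that zeros can be drawn), C4b and the sum of 7 border macrophage markers in each naive, depletion and repopulation library of WT (grey), Het (blue) and KO (red), with medians as lines. Repopulated KO libraries lie at 2.01 to 2.90 CPM of Cfb, below the 5.06 to 29.0 CPM of the repopulated controls; the marker sums of the repopulated groups overlap.

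C4b, the gene of complement C4 (ENSMUSG00000073418, chr17:34728380-34743882, minus strand), was also lower in repopulated KO. The KO libraries held 16.3, 30.2, 27.3 and 30.4 CPM. Het held 73.9, 86.8, 87.3 and 85.4 CPM, and WT 71.3, 124.6, 32.1 and 78.7 CPM. WT replicate 3 came close to the KO libraries without overlap. C4b fell in KO by 1.68 ± 0.36 against Het (adjusted p = 0.00183) and by 1.56 ± 0.36 against WT (adjusted p = 0.00346). Border macrophage markers (Mrc1, Cd163, Lyve1, F13a1, Pf4, Ms4a7 and Cbr2) summed to 34.03 to 87.5 CPM in repopulated KO, 44.6 to 75.9 CPM for Het and 30.9 to 80.8 CPM for WT, and 0 of 7 passed in edgeR in either comparison (0 against Het and 1 against WT at an unadjusted p under 0.05). The part of these markers in the repopulated C4b values was not tested.

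In naive microglia C4b is given beside the sums of those markers. Naive KO held 70.4, 39.7, 49.3, 23.7 and 86.2 CPM of C4b in replicates 1 to 5, beside marker sums of 568.2, 291, 393, 184.4 and 604.4 CPM. Naive WT held 88.5, 220.6, 136.1, 84.7 and 109.9 CPM of C4b, beside 590.7, 1332, 704.7, 573.5 and 747.6 CPM of markers. The KO and WT libraries overlapped in both measures. The library highest in C4b was also the highest in markers in naive KO 1 to 5, WT, Het 5 to 11, KO and Het 12 and 13, and old Het. It was not in naive Het 1 to 4 or in naive KO 6 to 11. Among treated groups the same library was highest in both in the cuprizone and depletion groups and in repopulated KO, and not in repopulated Het or WT. C4b fell in KO against WT by 1.25 ± 0.32 (adjusted p = 0.0148), a call that was lost without WT 2 (-0.96, adjusted p = 0.0769), without KO 4 (-1.06, adjusted p = 0.0583) and with only the libraries compared (adjusted p = 0.0971). Against Het (90.9 to 127.1 CPM, marker sums of 575 to 880.4 CPM) it did not pass (-0.99 ± 0.33, adjusted p = 0.0604), though no KO library reached a Het library, and it passed without KO 1 (0.0436) or KO 5 (0.023), in DESeq2 (0.0292) and with the replicate block (0.0478). The part of the markers in the naive C4b values was not tested.

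C4b fell at depletion in the controls. Depleted Het held 28.4 and 33.3 CPM, below every naive Het library (-1.79 ± 0.47, adjusted p = 0.00933), and depleted WT 29.9, 59.7, 49.9 and 84.9 CPM, the highest of which just overlapped naive WT (-1.19 ± 0.34, adjusted p = 0.0282). Marker sums at depletion, also below naive, ran from 66.6 to 80.7 CPM (Het) and from 91.4 to 193.7 CPM (WT). The Het call was lost without Het depletion 1 (adjusted p = 0.0748) or 2 (0.0982). The WT call was lost without naive WT 2 (-0.90, adjusted p = 0.107) or 3 (0.0543) and without depletion WT 1, 2 or 3 (0.106, 0.0659 and 0.0747), and with only the libraries compared (0.0707). Depleted KO, at 36.5 and 35.1 CPM, did not pass against naive KO (-0.59 ± 0.43, adjusted p = 0.542). Repopulated Het, with marker sums no higher than at depletion, held 1.44 ± 0.46 more C4b than depleted Het on the log2 scale without passing (adjusted p = 0.0569; 0.0172 with only the libraries compared and 0.0155 in DESeq2). From naive to repopulation C4b did not pass in any genotype (-1.05, -0.36 and -0.74 in KO, Het and WT; in KO adjusted p = 0.0544, 0.0165 in DESeq2 and 0.0154 without naive KO 4), while 7 of 7 border macrophage markers fell in each.

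Under cuprizone C4b was below naive in Het, at 23.4, 29.7, 17.4 and 18.0 CPM, against a lowest, median and highest naive value of 38.0, 54.9 and 100.4 CPM. C4b fell there by 1.39 ± 0.36 (adjusted p = 0.0251), a call lost without cuprizone Het 1, 3 or 4 (adjusted p = 0.0661, 0.0918 and 0.0964). In KO the value was -1.26 ± 0.32 (adjusted p = 0.0514; 0.00698 in DESeq2 and 0.00794 with all 64 libraries), with libraries from 5.41 to 29.5 CPM under cuprizone and from 28.6 to 62.8 CPM in naive KO. Marker sums ran from 74.9 to 318.8 CPM in Het under cuprizone and from 150.2 to 524.6 CPM in naive Het, and 0 of 7 of these markers passed in edgeR, with 0 at an unadjusted p under 0.05. Markers of other cells fell with C4b in Het: 2 of 4 astrocyte markers, 2 of 3 neuron markers and 1 of 3 oligodendrocyte markers. Astrocyte sums were 109.7 to 134.7 CPM under cuprizone and 142.4 to 239.7 CPM in naive Het, and oligodendrocyte sums 23.5 to 34.4 and 41.05 to 160.5 CPM, without overlap. The part of these markers in the C4b value was not tested. The near-identical gene C4a shares 23.5% of the 75-base windows of C4b, so reads of the 2 genes can be exchanged. C4a reached at most 1.68 CPM in any library of the low-noncoding set and 10.1 CPM in the cuprizone set, so C4b values of both sets carry that uncertainty, which is larger in the cuprizone set.

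C3 (ENSMUSG00000024164, chr17:57203970-57228136, minus strand) varied more, relative to its mean, than any chain of C1q in naive KO 6 to 11 and Het 5 to 11. That did not hold in every group, with 19.9 to 23.8 CPM of C3 in depleted WT beside 3415 to 4460 CPM of C1qb. Naive KO 6 to 11 held from 29.5 to 119.6 CPM, with a median of 52.1. Naive Het 5 to 11 held from 5.13 to 66.9 CPM, with a median of 16.4, and the second highest Het library held 19.9 CPM. The 2 ranges overlapped only through Het 9. C3 rose in KO by 1.58 ± 0.44 (adjusted p = 0.0273; 0.0619 with only the libraries compared). Beside it 1 of 3 neuron markers rose and 1 of 4 endothelial markers fell, and their part was not tested.

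In the low-noncoding naive libraries C3 held 5.25, 8.50, 9.90, 23.5 and 15.5 CPM in KO, 3.76, 20.7, 41.9 and 6.06 CPM in Het and 5.37, 10.7, 36.9, 26.2 and 5.08 CPM in WT. KO against Het was -0.54 ± 0.58 there, and the 2 KO against Het values differed by 2.11 ± 0.77, which did not pass (adjusted p = 0.211). Under cuprizone KO held 20.3 to 40.8 CPM and Het 5.16 to 21.9 CPM (0.88 ± 0.55, adjusted p = 0.343). At depletion KO held 28.2 and 54.5 CPM, above all controls at 10.5 to 23.8 CPM, and did not pass (1.68 ± 0.89 against Het, adjusted p = 0.356). At repopulation the genotypes overlapped, at 9.37 to 34.7 CPM in KO and 10.9 to 50.8 CPM in the controls.

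In old Het mice C3 held 327.2, 54.9 and 370.4 CPM, against 15.7 and 3.52 CPM in the adult Het libraries 12 and 13. Each old library exceeded each adult one, with replicate 2 far below the other two. Microglia markers summed to 13380 to 16000 CPM in old Het and 21070 to 23780 CPM in adult Het, with no overlap, and 0 of 8 passed in edgeR, with 7 at an unadjusted p under 0.05 (median log2 fold change -0.66). Old replicate 2 also had the highest noncoding share of all libraries, 13.6%. The part of these properties in the C3 value was not tested. The log2 difference of 4.71 ± 1.01 did not pass (adjusted p = 0.0769), and passed with no filter on low counts (adjusted p = 5.4e-09), in DESeq2 (1.58e-04) with all 64 libraries in 1 fit (9.36e-04) and without old replicate 2 (5.20, adjusted p = 0.0109). C4b was 60.7, 96.3 and 60.7 CPM in old and 34.8 and 41.5 CPM in adult mice (0.93 ± 0.25, adjusted p = 0.119; 0.0104 in DESeq2 and 0.00523 with no filter). Members passing were 0 of 8 in edgeR, with 3 at an unadjusted p under 0.05 (C3, C4b and C5ar1), while 0.545% of all genes passed (86 of 15786). In DESeq2 2 members passed, where 1566 of 15786 genes did.

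**Figure D4:**
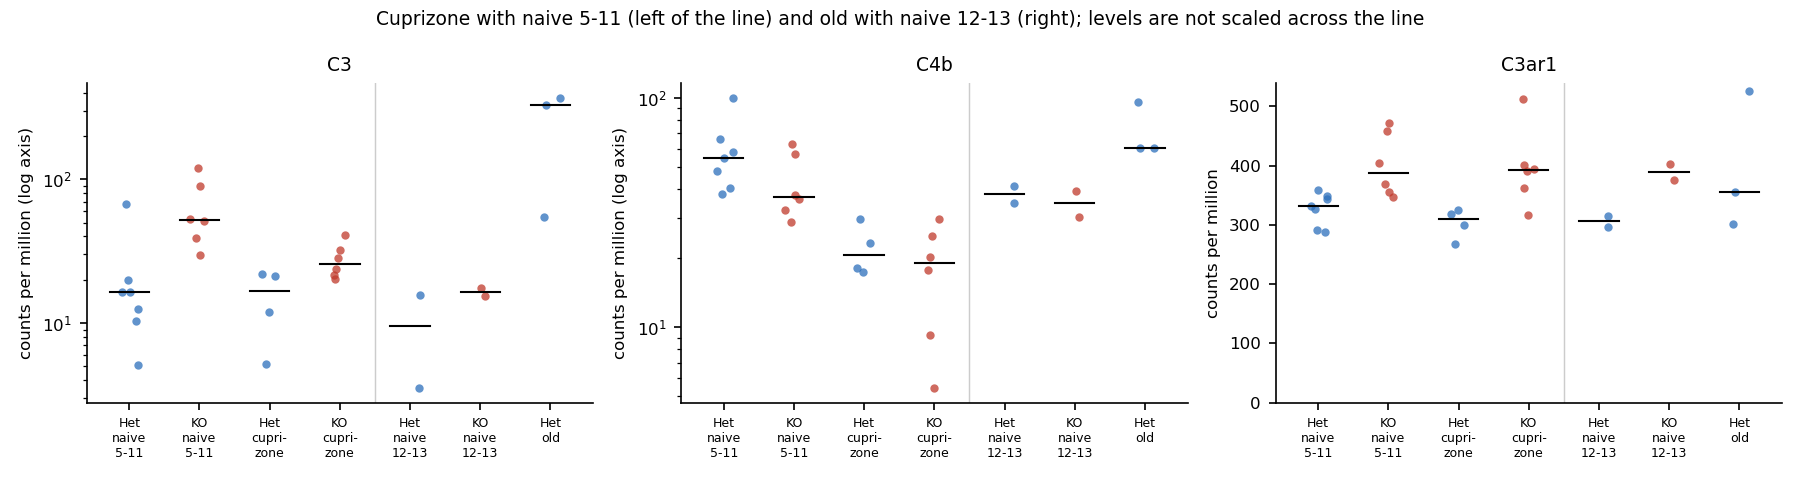
CPM of C3, C4b (log axes) and C3ar1 in each naive and cuprizone library of Het (blue) and KO (red), and, right of the line, in naive 12 and 13 and old Het libraries, with medians as lines. C3 in old Het lies at 54.9 to 370.4 CPM and in the adult Het libraries beside it at 3.52 and 15.7 CPM.

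C3ar1, the C3a receptor gene (ENSMUSG00000040552, chr6:122847138-122856161, minus strand), followed PLX3397 treatment in all 3 genotypes. At depletion it held 700.1 and 775.2 CPM in KO, 613.6 and 582.4 CPM in Het, and 642.8, 677.1, 655.2 and 694.7 CPM in WT. The naive libraries held 325.1 to 604.2 CPM in KO, 368.5 to 415.1 CPM for Het and 352.2 to 421 CPM for WT. Depleted libraries lay above all naive libraries of their genotype. C3ar1 rose by 0.59 ± 0.13 in KO, 0.61 ± 0.14 in Het and 0.79 ± 0.11 in WT (adjusted p = 0.00493, 0.00243 and 9.68e-06), and the KO call was lost without KO depletion 2 (0.51, adjusted p = 0.135) and with only the libraries compared (0.251).

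By repopulation C3ar1 had returned to 413.7, 475.4, 472.5 and 444.9 CPM in KO, 367.5, 330.2, 311.3 and 342.6 CPM in Het and 313.4, 353.1, 331.8 and 386.9 CPM in WT. It fell from depletion by 0.71 ± 0.13 in KO, 0.82 ± 0.13 in Het and 0.95 ± 0.11 in WT (adjusted p = 0.00189, 4.29e-04 and 7.39e-07), with no overlap in any genotype. Without KO depletion 2 the KO value was -0.63 (adjusted p = 0.0592). Repopulated and naive libraries did not differ past the threshold in any genotype (-0.12 ± 0.11, -0.21 ± 0.11 and -0.16 ± 0.11 in KO, Het and WT).

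Between genotypes C3ar1 was higher in every repopulated KO library than in every control. It rose by 0.42 ± 0.11 against Het (adjusted p = 0.0123) and by 0.38 ± 0.11 against WT (adjusted p = 0.0218). The Het comparison kept its call without any single library and in every alternative fit. The WT comparison was lost without KO 2 or 3 (adjusted p = 0.0597 and 0.0604), without WT 1 or 3 (0.08 and 0.0551) and with all 64 libraries in 1 fit (0.0725).

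In the other conditions the C3ar1 difference passed only in naive KO against WT and in cuprizone KO against Het. At depletion, against either control, and in naive 12 and 13 it did not pass, nor did it reach an unadjusted p under 0.05 in edgeR. Naive KO against Het gave 0.32 ± 0.11 (adjusted p = 0.0603; 0.0485 with DESeq2's size factors, 0.0234 in DESeq2, 0.0242 with the naive subdivision as a term and 0.000391 without KO 1). Naive KO against WT gave 0.34 ± 0.10 (adjusted p = 0.0444), naive KO 6 to 11 against Het 0.29 ± 0.10 (adjusted p = 0.0845; 0.034 with all 64 libraries), and cuprizone KO against Het 0.39 ± 0.12 (adjusted p = 0.0453). Under cuprizone KO held 316.5 to 512.9 CPM with a median of 392.4, and Het 300.1, 268.5, 324.5 and 318.4 CPM. Beside it 2 of 8 microglia markers (P2ry12 and Gpr34), 1 of 4 astrocyte and 1 of 3 neuron markers rose in KO under cuprizone, and their part was not tested. The cuprizone call was lost in 6 of 8 alternative fits and without any 1 of the 4 Het libraries (adjusted p = 0.101, 0.151, 0.0628 and 0.0704 without Het 1, 2, 3 and 4). The naive call against WT was lost with only the libraries compared (0.24), with no filter (0.0799) and with all 64 libraries (0.123). It was also lost without KO 2, 3, 4 or 5 (0.0707, 0.0583, 0.17 and 0.182) and without WT 1, 2, 3 or 4 (0.0916, 0.108, 0.0633 and 0.0934).

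**Figure D5:**
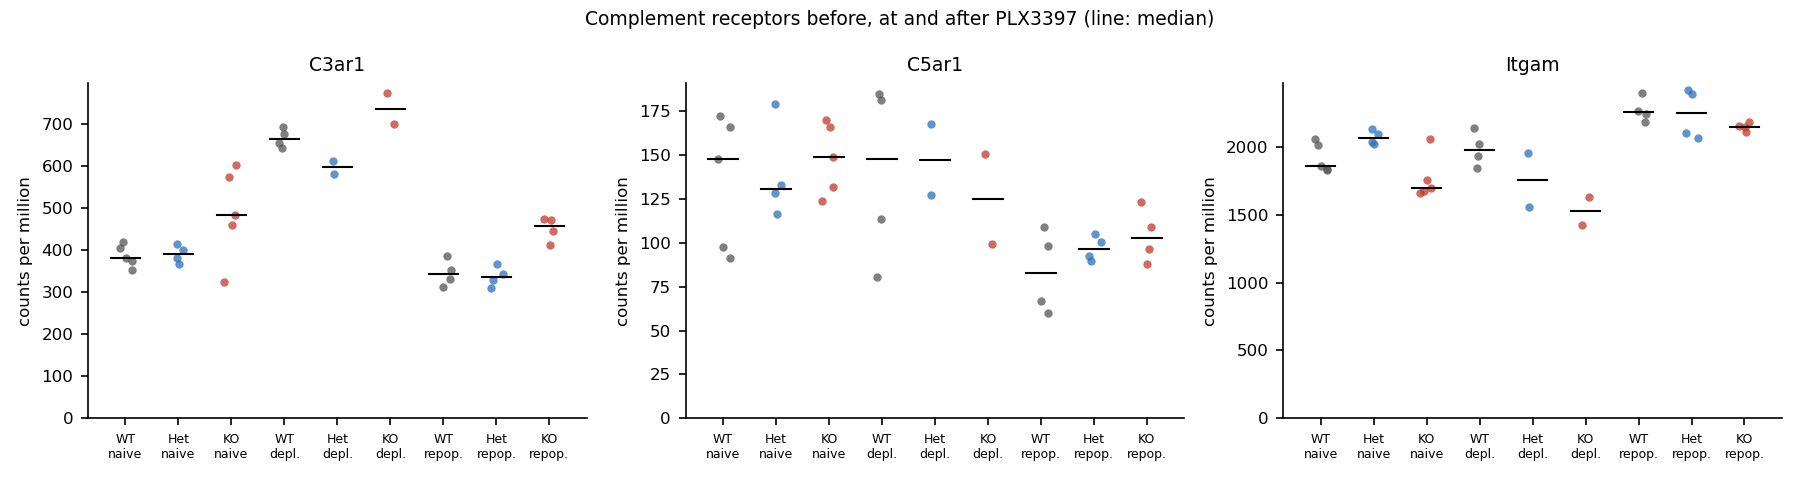
CPM of the receptor genes C3ar1, C5ar1 and Itgam in each naive, depletion and repopulation library of WT (grey), Het (blue) and KO (red), with medians as lines. Depleted libraries of C3ar1 lie at 582.4 to 775.2 CPM and repopulated ones at 311.3 to 475.4 CPM.

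C5ar1, the C5a receptor gene (ENSMUSG00000049130, chr7:16246743-16259540, minus strand), did not differ between genotypes past the threshold in any condition. Its repopulated libraries held 88.1 to 123.3 CPM in KO, 89.7 to 105 CPM for Het and 60.0 to 108.8 CPM for WT. Depleted WT held 184.7, 181.3, 80.5 and 113.6 CPM, so that the fall to repopulation in WT (-0.75 ± 0.23, adjusted p = 0.0388) came with overlap. That call was lost without WT depletion 1 or 2 (adjusted p = 0.129 and 0.153), without WT repopulation 1 or 3 (0.116 and 0.14) and with only the libraries compared (0.164). Repopulated against naive values were -0.51, -0.52 and -0.69 in KO, Het and WT, and none passed (adjusted p = 0.172, 0.144 and 0.0535). The WT value passed in DESeq2 (0.0202), with DESeq2's size factors (0.048), with all 64 libraries (0.0348) and without naive WT 1 or 2 (0.0268 and 0.0244) or repopulated WT 4 (0.0344). The KO and Het values passed with only the libraries compared (0.0388 and 0.0231).

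Itgam (ENSMUSG00000030786, chr7:128062640-128118491, plus strand) is also the gene of the sorting marker CD11b, and its level is read with that limit. It held 2148, 2152, 2107 and 2183 CPM in repopulated KO, 2391, 2422, 2104 and 2069 CPM in Het and 2266, 2244, 2186 and 2395 CPM in WT. KO against Het was -0.07 ± 0.07, with an interval of 2 SE from -0.21 to 0.08, while C1qb in the same libraries was at -0.83. Against naive, Itgam rose by 0.28 ± 0.07 in KO (adjusted p = 0.00819) and by 0.24 ± 0.07 in WT (adjusted p = 0.0245). The KO call was lost with only the libraries compared (0.0915) and with all 64 libraries (0.167). The WT call was lost with sex as a term (0.0659), with no filter (0.0923), with all 64 libraries (0.272), without naive WT 1, 2 or 4 (0.0982, 0.0518 and 0.0652) and without repopulated WT 4 (0.103).

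From depletion to repopulation Itgam rose by 0.49 ± 0.09 in KO (adjusted p = 0.00167) and 0.35 ± 0.09 in Het (adjusted p = 0.0162), with no overlap, and it was 0.20 ± 0.07 in WT (adjusted p = 0.0882). Without KO depletion 2 or Het depletion 2 these calls were lost (0.40, adjusted p = 0.0856, and 0.20, adjusted p = 0.457). With all 64 libraries in 1 fit they had adjusted p = 0.0905 and 0.24, and the Het call was lost with only the libraries compared (0.216). In WT the value passed with sex as a term (0.0456), and Het depletion against naive, at -0.24 (adjusted p = 0.0761), passed without Het depletion 1 (-0.42, adjusted p = 0.0109). In naive microglia Itgam fell in KO against Het by 0.23 ± 0.07 (adjusted p = 0.0353), with 1663, 2056, 1754, 1674 and 1695 CPM in KO and 2039, 2098, 2130 and 2020 CPM in Het, where KO 2 overlapped Het. In the same comparison 3 of 8 microglia markers (Tmem119, Cx3cr1 and Csf1r), 1 of 5 endothelial and 1 of 6 monocyte markers fell, and their part was not tested. By Y-linked genes the KO libraries here were 4 male and 1 female, and the Het libraries 1 male and 3 female. This Itgam call held in 3 of 8 alternative fits and without 1 of 9 libraries, KO 2. It was lost, among others, with the naive subdivision as a term (adjusted p = 0.283) and with sex as a term (-0.17, adjusted p = 0.108). It was lost without Het 1, 2, 3 or 4 (0.0625, 0.0679, 0.0964 and 0.0535) and without KO 1, 3, 4 or 5 (0.0658, 0.0625, 0.0956 and 0.0697). Gm49368 overlaps Itgam on the same strand in GENCODE.

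Of 39 other complement genes listed by role, 23 were tested in the low-noncoding set, 16 in the cuprizone set and 21 with the old mice. At repopulation 1 was higher and 4 were lower in KO than in Het, and 2 were higher and 3 lower than in WT, with medians of -0.24 and -0.34 over those tested. Of all genes 12.6% and 12.9% passed in these comparisons. Calr, the calreticulin gene, whose product can act at the cell surface as a C1q receptor and which is mainly a chaperone of the endoplasmic reticulum, fell by 0.93 ± 0.10 against Het (adjusted p = 1.93e-07) and by 0.91 ± 0.10 against WT (adjusted p = 2.92e-07).

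C5ar2, the second C5a receptor, fell by 0.54 ± 0.13 against Het (adjusted p = 0.00626) and by 0.61 ± 0.13 against WT (adjusted p = 0.00193) at repopulation. C1qbp, whose product is a mitochondrial matrix protein first named for binding C1q, rose by 0.64 ± 0.15 against Het (adjusted p = 0.00311) and by 0.78 ± 0.15 against WT (adjusted p = 4.02e-04). In naive KO 6 to 11 against Het, 2 of the 16 were higher and 0 lower in edgeR: Itgb2, the beta chain that pairs with Itgam (0.39 ± 0.09, adjusted p = 0.0084), and C1qbp (0.72 ± 0.15, adjusted p = 0.00368). Under cuprizone 3 of 16 were higher in KO, with Itgb2 at 0.58 ± 0.11 (adjusted p = 9.94e-04), C1qbp at 0.67 ± 0.18 (adjusted p = 0.0189) and the regulator Cr1l at 0.65 ± 0.18 (adjusted p = 0.0204). Of all genes 8.06% passed in naive KO 6 to 11 against Het and 9.74% in KO against Het under cuprizone.

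Repopulated against naive, 4 of the 23 were higher and 4 lower in Het, 2 and 3 in WT, and 3 and 4 in KO. Of all genes 13.3%, 7.71% and 8.66% passed in Het, WT and KO. Itgb2 rose in each genotype, by 0.37 ± 0.06 in KO, 0.40 ± 0.07 in Het and 0.31 ± 0.06 in WT (adjusted p = 1.51e-04, 6.93e-05 and 0.00108). Cd93, a membrane lectin once proposed as a C1q receptor and abundant in endothelium, fell by 2.57 ± 0.36 in KO, 2.80 ± 0.36 in Het and 2.17 ± 0.34 in WT. Endothelial markers summed to 208.4 to 597.3 CPM in naive Het and 96.8 to 199.9 CPM in repopulated Het, and their part in the Cd93 values was not tested. Itgax, the alpha chain of complement receptor 4, rose by 2.15 ± 0.22 in Het (adjusted p = 1.7e-08) and by 1.40 ± 0.20 in WT (adjusted p = 7.81e-06). In old against adult Het it was the 1 of 21 that passed (4.47 ± 0.64, adjusted p = 0.0492), at 143.6 to 626.1 CPM in old and 15.3 to 16.5 CPM in adult mice. Of all genes 0.545% passed there.

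Across the 64 libraries, after removal of the mean of each library set, the C1q chains tracked each other (Pearson r of log2 CPM 0.94 for C1qa with C1qb, 0.94 for C1qa with C1qc and 0.95 for C1qb with C1qc). These correlations describe libraries that share groups and depth, and carry no test. Their CPM were scaled by the library total without TMM, and the cuprizone libraries were a set of their own. The next most alike of 8307 genes were Ppib for C1qa (0.86), Itm2b for C1qb (0.88) and Rnaset2b for C1qc (0.89). Cfb was most like the interferon-induced genes Usp18 (0.73), Ifit3 (0.70) and Oas1a (0.70). It held at most 1.76 CPM in any library outside the low-noncoding set, so its r values include libraries near the limit of counting. C4b was most like Siglec1 (0.86), AI607873 (0.82) and St8sia4 (0.79). C3 was most like Itgax (0.71), Cst7 (0.68) and Fth1 (0.64).

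The receptors had other neighbours. C3ar1 was most like Man1c1 (0.84), Idua (0.83) and Rab11fip5 (0.83), C5ar1 most like Mesdc1 (0.69), Rela (0.66) and Ppp1r3b (0.66), and Itgam most like Sparc (0.73), Epb4.1l2 (0.71) and Itga6 (0.71). Cfb ran opposite to C3ar1 (r = -0.68), with the same limit on its counts. Outside the C1q chains no pair of members reached the r of 0.94 seen within them, the next being C3ar1 with C5ar1 at 0.50.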

How the data were processed

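The 64 libraries were made from total RNA of sorted microglia with a stranded kit and read single-end, per the labels' protocols. The deposited values are whole-number counts per gene, unnormalized. Per the submitters' processing notes, bcl2fastq 2.20, Trim Galore 0.6.7, STAR 2.6.1d and Salmon 1.5.2 were used with GRCm38; which of them counted the genes, and how reads of near-identical genes were assigned, is not given in the sources used here. Gene positions are from GENCODE vM21.

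Libraries were fitted in 3 sets (34, 23 and 7; the contrast between naive sets used all 64). The sets follow earlier work on these counts and differ in noncoding share, depth or both. Genes were kept by filterByExpr (minimum count 10, minimum total 15), which left 15664, 13421, 15786 and 18413. Scaling was TMM and the test edgeR 4.0.16 (R 4.3.3; glmQLFit, glmQLFTest, 1 mean per group, two-sided) with Benjamini-Hochberg adjustment over all genes tested and a threshold of 0.05. "Passed", "rose" and "fell" refer to it. The error beside a log2 fold change is its SE, and intervals span 2 SE on each side. CPM are scaled by TMM within a set, except in the correlations between genes, which used the library total. The test was checked on simulated counts.

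The 9 genes, the lists and the tests were chosen with earlier results of these data known. Named genes were all 9 members, up to 4 other complement genes per comparison by smallest p, and the 3 genes most alike to each member in log2 CPM (mean of at least 3). The last excluded Gm-numbered and Rik symbols. Some listed genes are counted and not reported by name here.

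Alternatives were DESeq2 1.42.0 (Wald test), its size factors in edgeR, no filter, all 64 libraries in 1 fit, only the libraries compared, sex from 4 Y-linked genes, the replicate number as a block, leaving out each library of groups of 2 to 5, and terms for subdivisions known from earlier work. The naive subdivision sets Het 1 to 4, KO 5 and WT 5 apart from KO 1 to 4 and WT 1 to 4, so it nearly follows KO against Het. By the Y-linked genes, naive KO 1 to 5 held 4 male and 1 female libraries, Het 1 to 4 held 1 and 3, and WT 1 to 5 held 5 and 0. Repopulated KO held 3 male and 1 female libraries, Het 1 and 3, and WT 2 and 2. Sex thus follows genotype in part.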

Additional observations from a re-analysis of the deposited data

Results flagged for a closer look

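In 99 sets of 4 to 7 libraries, 1 per gene and group, 6 held a library far from the others by Dixon's test, where chance alone gives about 1 in 20. The naive Het library numbered 9 was high in 2 of them, with 66.9 CPM of C3 (the other 6 at 5.13 to 19.9 CPM) and 1988 CPM of Itgam (the others at 1313 to 1493 CPM). Naive KO library 2 held 2056 CPM of Itgam, and the other 4 held 1663 to 1754 CPM. Repopulated Het library 1 held 73.9 CPM of C4b, with 85.4 to 87.3 CPM in the other 3. Cfb stood out in naive KO library 8 at 0.432 CPM and in KO cuprizone library 3 at 1.76 CPM, where the other libraries of each group held at most 0.103 and 0.289 CPM and each value rests on a few counts.

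The KO against Het difference of C1qa and C1qb differed between repopulated and naive microglia in edgeR, by -0.41 for C1qa (adjusted p = 0.0431) and by -0.71 for C1qb (adjusted p = 0.00502). All 4 repopulated KO libraries lay below all 4 repopulated Het libraries for both genes, while the naive groups overlapped. The same difference against WT did not pass for either. The naive KO against Het part nearly follows the naive subdivision of the libraries, for which no term was run here.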

How the results depend on the processing

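No member's call changed direction under any alternative. Of 411 alternatives to the 58 member values that passed, leave-outs aside, 348 stayed past the threshold, and of 1149 to the 169 that did not pass, 1121 stayed below it; a value that did not pass was given no direction. The number of members passing moved by over 1.5 times as follows, and the cause was not tested. With all 64 libraries in 1 fit it went from 1 to 0 in naive KO against Het, 4 to 1 in naive KO against WT, 1 to 2 in KO against Het of the 5 to 11 set, 3 to 0 in KO against either control at depletion and 6 to 3 in KO against WT at repopulation. In the same fit cuprizone against naive went from 1 to 2 in Het and 0 to 1 in KO, repopulated against naive from 2 to 0 in KO and 5 to 3 in WT, repopulation against depletion in KO from 2 to 1, depletion against naive in WT from 4 to 2, old against adult from 0 to 1, and the repopulated against naive difference of KO and Het from 2 to 0. With only the libraries compared, 0 members passed in naive KO against Het, in KO against WT, in KO against Het of the 5 to 11 set and under cuprizone, in either depletion comparison and in depletion against naive in KO. In that fit 1 passed in repopulated against naive KO and 2 each in depletion against naive and repopulation against depletion in WT. With no filter on low counts the number was 0 in naive and in cuprizone KO against Het, 2 in naive KO against WT, 2 in old against adult and 1 in the repopulated against naive difference. DESeq2's Wald test gave 3 in naive KO against Het, 1 in cuprizone against naive KO and 2 in old against adult. DESeq2's size factors gave 2 in naive KO against Het and 0 in cuprizone KO against Het. Sex as a term gave 0 in both, and the cuprizone subdivision gave 0 for the latter. The number of all genes passing moved as well. With all 64 libraries, only the libraries compared and no filter, naive KO against WT went from 809 to 356, 256 and 616. In the same fits old against adult went from 86 to 988, 7 and 1510, and depletion against naive in KO from 881 to 237, 45 and 617. With DESeq2's size factors it moved by over 1.5 times in 0 of 26 comparisons.

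Leaving out single libraries, the number of members passing ranged as follows. The number of all genes passing in these fits is not reported here, so the ranges are not read as particular to the members. In KO against Het it was 0 to 2 in naive, 0 under cuprizone, 2 to 3 at depletion and 6 at repopulation. In KO against WT it was 0 to 6, 1 to 3 and 5 to 6 in naive, at depletion and at repopulation. Cuprizone against naive in Het gave 0 to 1, depletion against naive 0 to 1 in KO, 4 to 5 in Het and 2 to 4 in WT, and repopulated against naive 2 to 3 in KO, 4 in Het and 4 to 5 in WT. Repopulation against depletion gave 0 to 2 in KO, 2 to 3 in Het and 2 to 4 in WT, old against adult 0 to 1, and the repopulated against naive difference of KO and Het 1 to 3. Where 1 library of a group was left, it was assumed to vary like the other groups.

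Correlations of the deviations of same-numbered libraries ran from -0.268 to 0.377 over all comparisons. In no comparison with 3 or more pairs was every pair above 0.1. Every pair was above 0.1 in KO against Het at depletion (0.176) and in depletion against naive in Het (0.118 to 0.166), each with 2 pairs. So few pairs cannot tell if same-numbered libraries are paired, and they were fitted as unpaired. With the replicate block 2 members passed in naive KO against Het and 0 in cuprizone KO against Het, and no other number of members changed. The block was not run for cuprizone against naive and old against adult, which share fewer than 2 numbers, nor sex among the 7 libraries with old Het, which are all male. The number of all genes passing differed by over 1.5 times in 69 of 179 alternatives, among them all 25 with 64 libraries in 1 fit. Repopulated KO against Het had 1971 genes, 851 in that fit. Depletion had 2 KO and 2 Het libraries, and Cfb, C3 and the cuprizone libraries had the fewest counts, which limits what could be detected.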
